A study of Mus musculus with 59 samples.

Results

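Klf2, Klf3, Klf4, Klf6, Klf7, Klf9, Klf10, Klf12, Klf13 and Klf15 are 10 members of the Kruppel-like factor family, followed here in the brain of mice that were exposed to valproic acid before birth. Members were taken as the probe sets whose single gene symbol was 1 of these names, which gave 36 probe sets of 45101 on the array and 10 genes of 18194. All 10 were measured in all 59 arrays and 19 groups. Klf9 had 7 probe sets, Klf3 7, Klf6 5, Klf12 5, Klf7 4, Klf13 3 and Klf4 2, while Klf2, Klf10 and Klf15 had 1 each.

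Pregnant C57BL/6 mice were given valproic acid (VPA, an anti-epileptic drug that also inhibits histone deacetylases), valpromide (VPM, the amide of VPA) or the vehicle methylcellulose (MC) by mouth once a day from E12.5 through E13.5 to E14.5. VPA and VPM were given at 300 mg/kg per dose and MC as a 0.5% suspension, so every group, controls included, was dosed on the same days. The E14.5 telencephalon was taken 3 h after the last dose (VPA, VPM and MC), and the E18.5 hippocampus and E18.5 forebrain came from the same 3 treatments. Adult males aged 12 to 13 weeks gave hippocampus and cortex after prenatal VPA or MC, either with a running wheel placed in the cage after weaning (VPA+RW, MC+RW) or without one (VPA, MC), and a separate set of male hippocampi was taken at P84 (VPA, MC). Each group held 3 arrays, except 4 in each P84 group. The labels call the arrays biological replicates but do not name the litters or the mothers, which received the drug, so p-values measure only the spread between these samples.

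Kruppel-like factors bind GC-rich and CACCC sequences through zinc fingers at the end of the protein, and differ in the partners they recruit. Klf9 is induced by glucocorticoid and thyroid hormone receptors and takes part in the late maturation of neurons. Klf15 is another glucocorticoid-induced member, Klf10 is an early response gene of TGF-beta, Klf2 and Klf4 are known from endothelium, Klf6 and Klf7 from axon growth, and Klf3 and Klf12 are repressors that bind CtBP, while Klf9 and Klf13 bind Sin3A.

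The promoters of Klf9, Klf15 and Klf7 are printed because their changes under VPA in the E14.5 telencephalon were called under all 15 alternatives run. Each is the 250 bases before the annotated start, 5' to 3' on the gene's own strand, from RefSeq (GRCm38.p6), at chr19:23140976-23141225 on the plus strand for Klf9, chr6:90462326-90462575 on the plus strand for Klf15 and chr1:64121390-64121639 on the minus strand for Klf7. Capitals mark matches on either strand to CACCC, a Kruppel-like factor motif that reads GGGTG on the opposite strand; to GGGCGG, the GC box of Sp and Kruppel-like factors, which reads CCGCCC; to CCAAT, which reads ATTGG; and to TGACG, from the cAMP response element, which reads CGTCA.
Klf9: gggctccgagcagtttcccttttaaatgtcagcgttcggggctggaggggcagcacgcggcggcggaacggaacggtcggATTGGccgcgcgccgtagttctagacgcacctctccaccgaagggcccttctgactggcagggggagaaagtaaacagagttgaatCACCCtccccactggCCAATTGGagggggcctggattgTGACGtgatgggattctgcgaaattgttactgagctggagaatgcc
Klf15: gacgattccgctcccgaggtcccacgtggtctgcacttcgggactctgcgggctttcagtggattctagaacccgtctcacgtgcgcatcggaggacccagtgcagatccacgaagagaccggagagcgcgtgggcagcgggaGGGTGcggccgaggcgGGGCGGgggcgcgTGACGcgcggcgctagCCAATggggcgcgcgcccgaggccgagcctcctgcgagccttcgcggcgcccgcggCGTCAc
Klf7: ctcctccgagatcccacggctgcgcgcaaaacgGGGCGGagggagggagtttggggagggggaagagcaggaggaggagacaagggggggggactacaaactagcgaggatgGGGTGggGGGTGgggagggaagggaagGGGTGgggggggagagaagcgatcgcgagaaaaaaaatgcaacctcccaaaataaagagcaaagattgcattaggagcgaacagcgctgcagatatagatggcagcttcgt

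The Klf9 promoter held 1 CACCC, 3 CCAAT, 1 TGACG and 0 GGGCGG matches, and a pair of its CCAAT matches overlap as CCAATTGG. The Klf15 promoter held 1 CACCC, 1 GGGCGG, 1 CCAAT and 2 TGACG matches, and the Klf7 promoter held 3 CACCC and 1 GGGCGG matches with 0 of the other motifs. Over all 32851 promoters of this length, 52% held at least 1 CACCC, 32.7% a GGGCGG, 33.8% a CCAAT and 17.8% a TGACG, so these motifs are common. Base composition was 59.6% G and C for Klf9, 72% for Klf15 and 59.2% for Klf7. A promoter was matched for 9 of the 10 genes, Klf10 being the other.

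RNA was measured on Affymetrix Mouse 430 2.0 arrays, and values are the authors' signal intensities, rescaled so that the trimmed mean of every array is 500. A gene was described by its brightest probe set over all arrays, and levels are not compared between genes. Values under 32 were raised to that floor before log2 was taken, and a change is a difference of group means of log2 signal with its 95% interval. A gene was called at a limma adjusted p under 0.05, adjusted over all genes tested in that comparison, and each share of called genes is given so that the members can be read against it. Groups of so few arrays often separate. At E14.5 they did not overlap for 60.2% of genes tested in VPA against MC, 32.8% in VPM against MC and 60.7% in VPA against VPM. For VPA against MC at E18.5 the share was 22.3% in forebrain and 17.8% in hippocampus. Tissue labels were checked on markers. The summed signal of 4 hippocampus genes (Prox1 and Zbtb20 among them) was 5708 to 7443 in E18.5 MC hippocampus and 2643 to 3137 in E18.5 MC forebrain, and 3 hindbrain genes summed to 68.6 to 143 in E14.5 MC telencephalon, with 2 of them at the floor. Arrays of 1 group correlated at 0.978 to 0.995. In whole tissue, fewer cells of a type and less RNA per cell cannot be told apart.

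In the E14.5 telencephalon, 3 h after the last dose, Klf9 was 7.56-fold higher in VPA than in MC embryos. Its scaled signal was 305.5, 337.4 and 383.9 in the VPA arrays, 71.1, 82.0 and 120.1 in the VPM arrays, and 23.7, 54.8 and 52.2 in the MC arrays. The 3 treatments did not overlap, VPA being highest and MC lowest, and 1 MC array lay under the floor. The change was 2.92 on the log2 scale for VPA against MC (95% interval 2.37 to 3.47, limma adjusted p = 3e-06). It ran from 2.24 to 3.06 over the 15 alternatives, all on the brightest Klf9 probe set. Further Klf9 probe sets tested at this age gave smaller changes, printed with the VPM results below.

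Klf15, which regulates metabolic genes under glucocorticoids, had signals of 334.4, 365.0 and 347.2 in VPA arrays, 278.3, 223.3 and 281.7 in VPM arrays, and 152.1, 224.9 and 180.4 in MC arrays. Every VPA array was above every VPM and MC array, while the lowest VPM array, at 223.3, lay just under the highest MC array. The change for VPA against MC was 0.93 (0.59 to 1.26, limma adjusted p = 0.000316), a 1.90-fold rise.

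Klf7, which promotes the outgrowth of axons, moved down under VPA. Its signals were 1825, 2055 and 1873 in VPA arrays, 3286, 3165 and 3605 in VPM arrays, and 2519, 2547 and 2600 in MC arrays. The groups did not overlap, and here VPM lay above MC while VPA lay below it. Against MC, VPA fell by 0.42 (-0.56 to -0.27, limma adjusted p = 0.000244). The 3 further Klf7 probe sets were also lower in VPA, by -0.42, -0.45 and -0.38, each with an adjusted p between 0.00242 and 0.00411.

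Of the 10 members, 3 rose and 3 fell in VPA against MC, against 53.8% of the 11068 genes tested in that comparison (27% higher and 26.8% lower), so the share of members called is close to that of all genes. The median change of the members was 0.12 and that of all genes tested was -0.003. The third rise was that of Klf4, a factor of endothelium and of pluripotent cells, with signals of 175.8, 153.0 and 155.4 in VPA arrays against 140.5, 102.4 and 110.8 in MC arrays. All VPA arrays exceeded all MC arrays, and the change of 0.46 (0.08 to 0.85) had a limma adjusted p of 0.0435. The second Klf4 probe set, too dim to be tested at this age, read 73.7, 61.4 and 75.6 in VPA arrays and 49.3, 78.7 and 80.4 in MC arrays, which overlapped. Klf12 and Klf3, both CtBP-binding repressors, fell by 0.29 (limma adjusted p = 0.0284) and by 0.22 (adjusted p = 0.0408). The Klf12 signal was 1042, 881 and 987 in VPA arrays and 1302, 1033 and 1231 in MC arrays, which overlapped. For Klf3 it was 1367, 1264 and 1392 in VPA arrays and 1544, 1727 and 1413 in MC arrays, and every VPA array lay below every MC array, by a narrow margin. The calls of Klf4, Klf12 and Klf3 were each lost without most single arrays. The Klf4 call was lost without MC replicate 2 or 3 or any single VPA array. For Klf3 it was lost without MC replicate 1 or 2 or any single VPA array. For Klf12 it was lost without MC replicate 1 or 3 or VPA replicate 2 or 3.

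The remaining members did not pass in VPA against MC. Klf10 was 0.21 (limma adjusted p = 0.129), with VPA arrays at 438.5, 391.6 and 398.6 above MC arrays at 336.5, 386.2 and 342.5, a narrow separation. Klf6 was 0.20 (0.130), with 925.3, 741.4 and 819.8 in VPA arrays and 811.1, 649.2 and 707.7 in MC arrays, which overlapped. Klf2, an endothelial factor induced by blood flow, was 0.03 (0.859), and Klf13, a Sin3A-binding repressor, was -0.19 (0.127), both with overlapping groups. For Klf6 the probe set used and the others pointed the same way, and 1 of the others passed at 0.32 (adjusted p = 0.0334). For Klf12, 1 further probe set fell by 0.59 (adjusted p = 0.0169) and another changed by -0.32 (adjusted p = 0.118). Of 4 further Klf3 probe sets, none passed, with changes of -0.20, -0.12, -0.03 and 0.28. A further Klf13 probe set went the other way from the one used, averaging 939.5 in VPA and 876.9 in MC arrays, which overlapped.

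**Figure D1:**
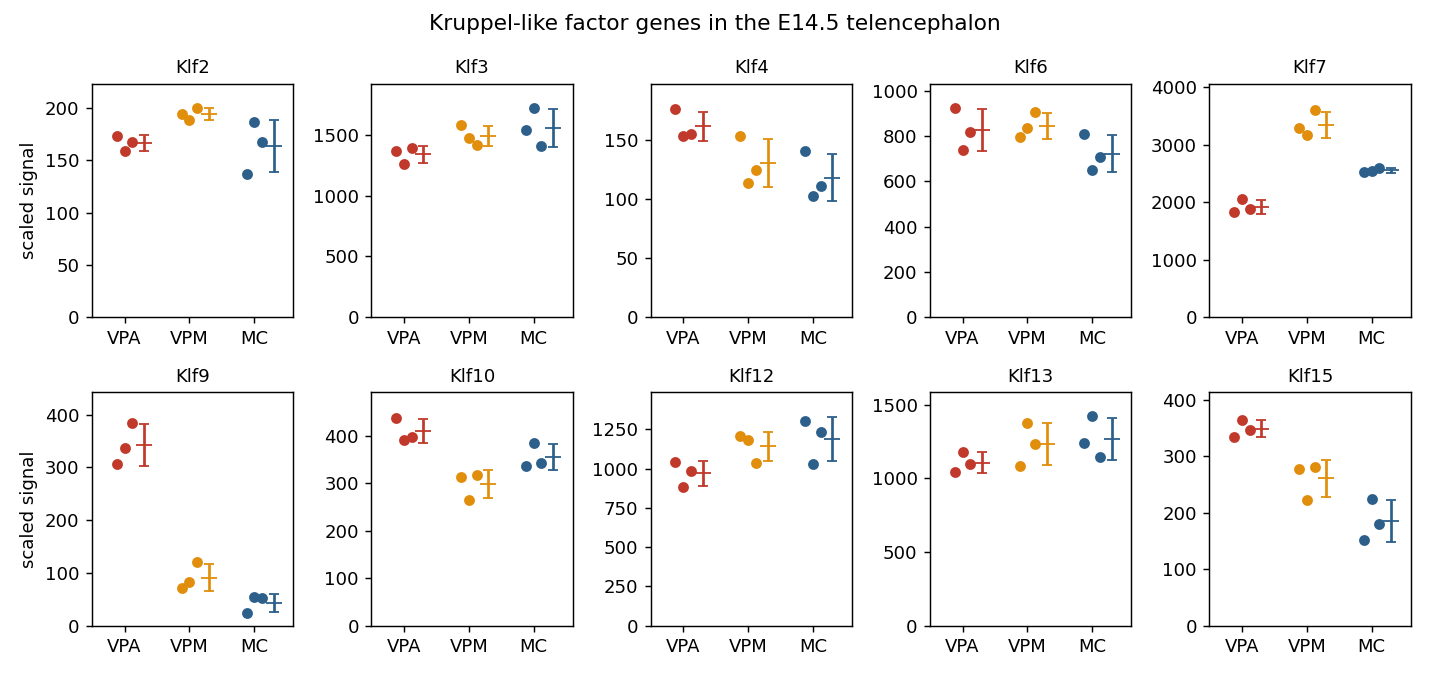
Scaled signal of each of the 10 Kruppel-like factor genes in the E14.5 telencephalon, 1 panel per gene with its own linear axis from 0, points for the 3 arrays of VPA, VPM and MC, and bars for the mean and SD. Klf9 separates all 3 treatments, at a mean of 342.3 in VPA, 91.1 in VPM and 43.6 in MC, and Klf7 lies on opposite sides of MC in VPA and VPM.

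VPM shares the carbon chain of VPA and carries an amide in place of the acid group, and both were given at the same dose and times. The members were compared between the compounds directly and each against MC; both comparisons against MC use the same 3 MC arrays. Against MC, VPM raised 2 members, Klf9 and Klf7, and lowered 0, against 11.6% of genes tested (5.65% higher and 5.91% lower). For Klf7 the rise was 0.39 (0.25 to 0.53, limma adjusted p = 0.00453), with 1 of 3 further probe sets passing (0.34, adjusted p = 0.0376) and the others at 0.23 and 0.27. For Klf9 it was 0.98 (0.43 to 1.53, adjusted p = 0.0279).

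The Klf9 rise under VPM rests on its brightest probe set and on single arrays. On the 2 further Klf9 probe sets that could be tested at E14.5, VPM against MC was 0.35 (limma adjusted p = 0.148) and 0.65 (adjusted p = 0.227), neither called, whereas VPA against MC was 2.14 (adjusted p = 8.77e-07) and 2.16 (adjusted p = 0.000167). On the first of these the signals were 579.4, 577.5 and 556.5 in VPA, 177.0, 160.0 and 160.9 in VPM, and 105.0, 135.5 and 153.7 in MC, so that the 3 treatments did not overlap there either. Leaving out MC replicate 1, the array under the floor, gave a VPM change of 0.73 (adjusted p = 0.0763), and leaving out VPM replicate 3, the highest, gave 0.76 (adjusted p = 0.116). That VPM array also stood apart in choroid plexus genes, whose sum was 20517 there, against 316 in the lowest VPM array and 267 to 370 in MC arrays. The part of choroid plexus tissue in the Klf9 value was not tested.

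**Figure D2:**
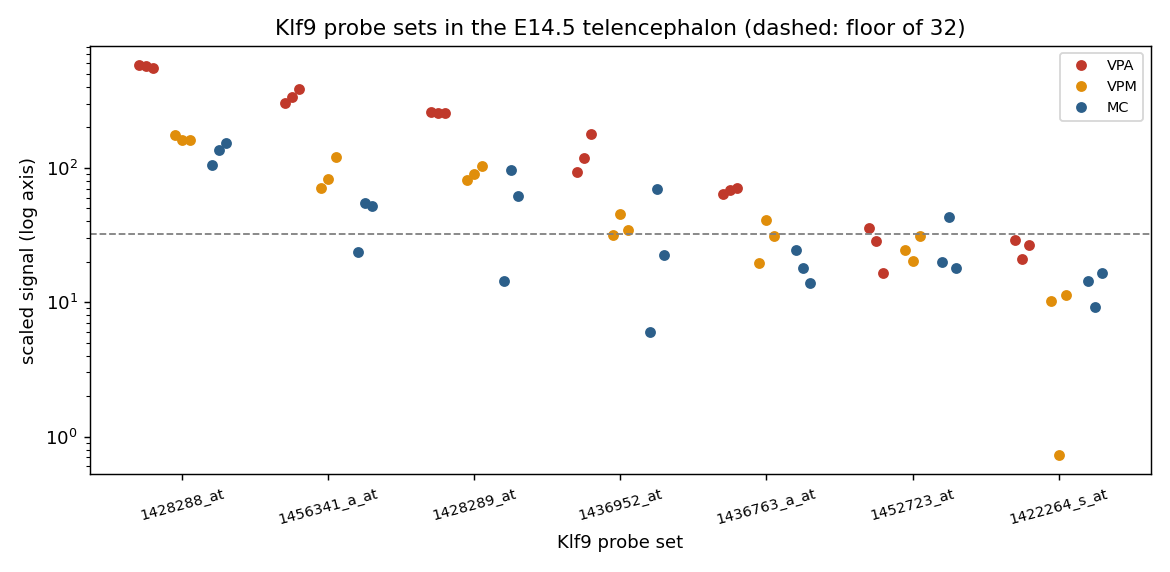
Scaled signal of the 7 Klf9 probe sets in the E14.5 telencephalon, on a log axis, with a point per array for VPA, VPM and MC, with the floor of 32 marked. The further probe set at the left read 556.5 to 579.4 in VPA arrays and 105.0 to 153.7 in MC arrays.

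Set directly against VPM, VPA gave 4 called members of 10, against 54.5% of genes tested (27.5% higher and 27% lower). Klf9 was higher by 1.94 (1.39 to 2.49, limma adjusted p = 5.23e-05), a 3.84-fold difference. Klf10, the TGF-beta early gene, had signals of 438.5, 391.6 and 398.6 in VPA arrays and 312.6, 264.6 and 318.2 in VPM arrays, which did not overlap, and was higher by 0.46 (0.22 to 0.70, adjusted p = 0.00358). Klf15 was higher by 0.43 (0.09 to 0.76, adjusted p = 0.0324), a call lost without any single VPA array or without VPM replicate 2. Klf7 was lower, at -0.81 (-0.95 to -0.66, adjusted p = 1.69e-06).

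For the other 6 members the compounds were not called different, and the intervals of VPA against VPM show what the arrays could have missed. They were -0.07 to 0.70 for Klf4, -0.26 to 0.19 for Klf6, -0.37 to 0.07 for Klf13, -0.53 to 0.09 for Klf2, -0.33 to 0.02 for Klf3 and -0.46 to -0.02 for Klf12 (limma adjusted p = 0.064). A p that misses the threshold does not show that the compounds act alike on these genes. Klf15 under VPM against MC was 0.50 (0.17 to 0.83) with a limma adjusted p of 0.054, just outside the threshold.

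Other genes of the family and of linked pathways were read from lists. Their counts stand beside 53.8% of all genes called in VPA against MC (27% higher and 26.8% lower). In VPM against MC the share was 11.6%. Counts close to these shares are not particular to a list. Of 8 further Klf and Sp genes tested at E14.5, 2 rose and 4 fell in VPA against MC. Klf5 was higher by 1.15 (limma adjusted p = 6.05e-05) and Klf16 by 0.77 (0.000127), while Sp3 was lower, at -0.62 (6.02e-05), as were Klf11 at -0.38, Sp4 at -0.67 and Sp1 at -0.22. Klf5 was also higher in VPM than in MC, by 0.65 (limma adjusted p = 0.0169), and Sp1 was lower at -0.31 (0.0195). Of 12 cofactors that Kruppel-like factors bind, 3 rose and 5 fell in VPA: the corepressor scaffold Sin3a (0.62) and the deacetylase Hdac1 (0.60) were among the rises, and the acetyltransferase Crebbp (-1.03, limma adjusted p = 1.09e-06) among the falls. In VPM only Hdac1 of these 12 was called, at -0.47 (limma adjusted p = 0.00109), on the opposite side of MC from its VPA value.

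Hormone response genes were read from a pair of lists. Of all genes, 27% were called higher and 26.8% lower in VPA against MC. The shares were 5.65% and 5.91% in VPM against MC, and 27.5% and 27% in VPA against VPM. Of 13 glucocorticoid response genes tested, 7 rose and 2 fell in VPA against MC, with a median of 0.33 beside -0.003 for all genes; Plekhf1 rose by 1.93 (limma adjusted p = 5e-06), while Tsc22d3, a glucocorticoid-induced leucine zipper, was lower at -0.62 and Nfkbia at -0.43. In VPM against MC, 0 of the 13 were called, and in VPA against VPM 8 were higher and 2 lower. Of 7 thyroid hormone genes, 1 rose (Nrgn, 0.93) and 4 fell in VPA, among them Hr at -1.16 and the hormone-binding Crym at -0.71, with a median of -0.40. In VPM against MC, 5 of the 7 rose and 0 fell, including the transporter Slco1c1 (1.06, limma adjusted p = 0.00216), the deiodinase Dio2 (1.44, 0.00237) and Crym (0.86, 0.0163). VPA against VPM, the direct comparison, was -1.46 for Slco1c1, -1.43 for Dio2 and -1.57 for Crym, each called, and 6 of the 7 genes were lower in VPA.

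Further lists bear on single members. Their counts stand beside 27% of all genes called higher and 26.8% called lower in VPA against MC. In VPM against MC the shares were 5.65% and 5.91%. Of 8 immediate early genes, 3 rose and 1 fell in VPA against MC, with Junb at 1.04, Ier2 at 0.68 and Dusp1 at -0.51, whereas 0 rose and 3 fell in VPM against MC (Jun at -0.49, Ier2 at -0.36 and Btg2 at -0.40). Of 13 clock genes, 9 rose and 1 fell in VPA, with Cry1 at 1.08, Cry2 at 0.83 and Hlf at 1.60, and 0 were called in VPM against MC. Of 10 TGF-beta response genes, 4 rose and 1 fell in VPA, with Skil at 0.53, Tgif1 at 0.76 and the receptor Tgfbr2 at -0.85. Of 10 endothelial genes, none rose and 3 fell in VPA, namely Esam at -0.78, Cldn5 at -0.45 and Kdr at -0.47, while Klf4 rose and Klf2 was not called. Of 4 tested endothelial targets of Klf2, only Nos3 was called, at -0.69 (limma adjusted p = 0.00135).

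Markers of other cell types differed between treatments in the same arrays. The endothelial sum was 2301 to 2469 in VPA, 3121 to 3549 in VPM and 3018 to 3149 in MC arrays. All 5 forebrain genes were lower in VPA than in MC, with sums of 11672 to 12870 in VPA, 14185 to 18090 in VPM and 17560 to 18814 in MC arrays. Red cell genes summed to 6543 to 10052 in VPA, 2536 to 3184 in VPM and 10983 to 12984 in MC arrays. The part of these shifts in the member changes was not tested.

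By E18.5, days after the last dose, the forebrain still had more Klf9 in VPA than in MC embryos. Signals were 676.5, 766.4 and 685.7 in VPA arrays, 456.2, 460.5 and 457.3 in VPM arrays, and 424.0, 492.0 and 432.5 in MC arrays. Each VPA array lay above all VPM and MC arrays, whereas VPM lay inside the range of MC. VPA against MC was 0.66 (0.49 to 0.83, limma adjusted p = 0.00497), a 1.58-fold difference, and it was the only member called, against 2.16% of 11507 genes tested (1.09% higher). Klf9 was also the only member called in VPA against VPM, at 0.63 (0.46 to 0.80, adjusted p = 0.0126, against 0.53% of genes), and VPM against MC was 0.03 (-0.14 to 0.20, adjusted p = 0.984), where 0% of genes were called (626 genes had an unadjusted p under 0.05 by limma).

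On further Klf9 probe sets the E18.5 forebrain change in VPA against MC was 0.78 (limma adjusted p = 0.00263), 0.87 (0.0149), 0.73 (0.113) and 0.37 (0.467). The call against MC held without any single array, while the call against VPM was lost without VPA replicate 1 (adjusted p = 0.0701), VPA replicate 2 (0.0527), VPM replicate 1 (0.0599) or VPM replicate 2 (0.056). The other 9 members ran from -0.29 (Klf4) to 0.09 in VPA against MC. Choroid plexus genes differed in these arrays: their sum was 678 to 5048 in VPA, 20528 to 24508 in VPM and 18113 to 25966 in MC arrays, with 6 of 7 tested genes lower in VPA than in MC (Folr1 at -2.27, Otx2 at -2.11). The part of that tissue in the Klf9 difference was not tested in the forebrain.

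In the E18.5 hippocampus, Klf9 signals were 600.1, 921.3 and 862.6 in VPA, 524.5, 426.5 and 408.8 in VPM, and 441.3, 448.9 and 596.4 in MC arrays. VPA lay above the other treatments, by a narrow margin for its lowest array. VPA against MC was 0.67 (0.30 to 1.05), close in size to the forebrain, but the limma adjusted p was 0.199, and VPA against VPM was 0.79 (0.42 to 1.17, adjusted p = 0.0998). No member was called in this tissue, where 0% of 11540 genes were called in VPA against MC (1507 by limma at an unadjusted p under 0.05), 0% in VPA against VPM (1717) and 0.00867% in VPM against MC. The choroid plexus sums here were 22986, 24047 and 27553 in VPA, 1210, 27872 and 5662 in VPM, and 9223, 1832 and 30337 in MC arrays. Every VPA array was high, while the VPM and MC arrays varied widely and overlapped VPA. The part of that tissue in the Klf9 values was not tested in the hippocampus either. The Klf9 effect of VPA differed by 0.01 between hippocampus and forebrain (-0.38 to 0.40), and no member differed, against 0.103% of genes. That comparison treated the arrays of both regions as independent, and the labels do not say whether they share animals.

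The change under VPA against MC at E14.5 was then set against later ages in a single model over all 59 arrays. For Klf9 the change in the E18.5 forebrain was smaller than at E14.5, by -2.26 (-2.65 to -1.87, limma adjusted p = 5.07e-13). The sizes of the Klf9 differences rest on its brightest probe set, whose E14.5 MC arrays lay near or under the floor. Klf15 differed by -0.84 (-1.30 to -0.37, adjusted p = 0.00412), Klf4 by -0.75 (adjusted p = 0.0242) and Klf7 by 0.44 (0.25 to 0.63, adjusted p = 0.000258). These 4 of 10 members stand against 29.4% of 14524 genes. In the P84 hippocampus, set against E14.5, 3 members differed against 32.6% of genes: Klf9 by -2.94 (adjusted p = 1.38e-17), Klf15 by -0.85 (0.0017) and Klf7 by 0.41 (0.000253). Tissue differs along with age in both comparisons, and the E14.5 samples were taken hours after a dose, so age, tissue and time since dosing cannot be told apart.

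**Figure D3:**
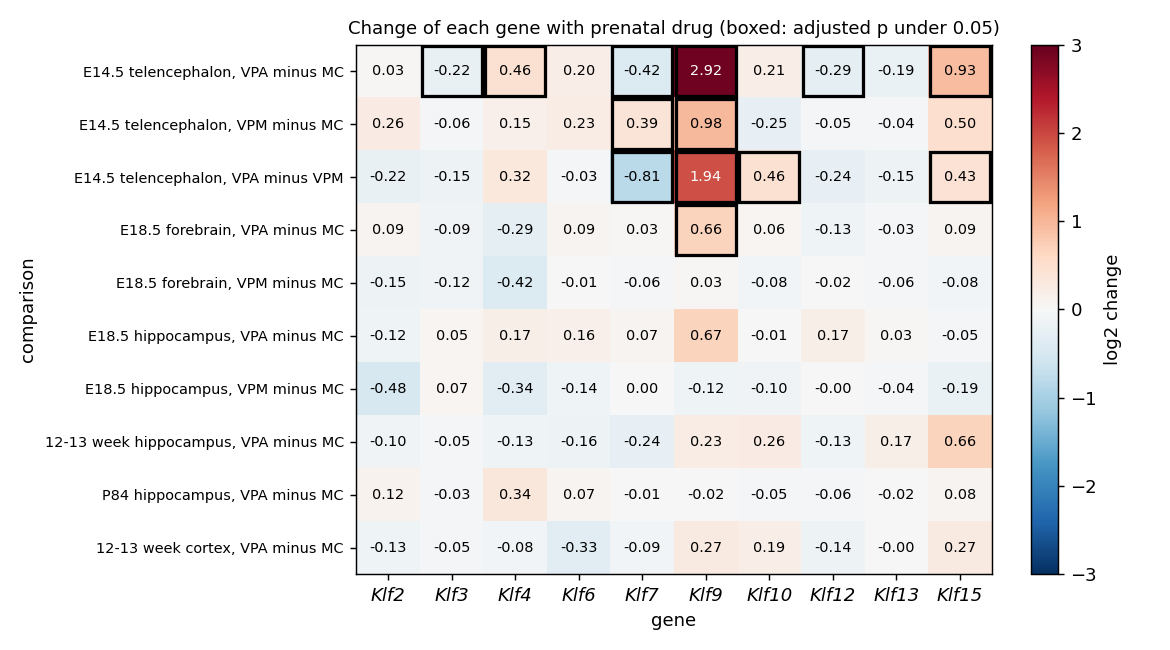
Log2 change of the 10 members in 10 prenatal drug comparisons, with a row per comparison, a column per gene, blue below 0 and red above 0, and a box around each change with a limma adjusted p under 0.05. The 3 E14.5 rows hold 6, 2 and 4 boxes, Klf9 alone is boxed in the E18.5 forebrain (0.66), and no box lies in the adult rows.

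In adults no member was called for prenatal VPA or for running. The same held for VPA+RW against MC+RW, where 0.022% of genes were called in cortex and 0% in hippocampus. Klf9 in adult hippocampus read 8980, 8838 and 8556 in VPA, and 7076, 7722 and 7696 in MC arrays without a wheel, which did not overlap. The Klf9 change was 0.23 (0.13 to 0.33), with a limma adjusted p of 0.227 in a comparison where 0% of 13466 genes were called. Of those genes, 16.9% showed no overlap either. In adult cortex Klf9 read 9635, 9655 and 9837 in VPA and 7863, 7666 and 8711 in MC arrays, again without overlap, a change of 0.27 (0.16 to 0.38, adjusted p = 0.120, with 0.00735% of 13606 genes called). There 15.7% of genes showed no overlap. At P84, with 4 arrays a group, Klf9 read 8854, 8833, 8564 and 8399 in VPA and 8508, 8607, 9326 and 8736 in MC hippocampus, with overlapping groups and a change of -0.02 (-0.12 to 0.08, adjusted p = 0.972, 0% of 13036 genes called).

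The P84 hippocampi and the 12 to 13 week hippocampi carry the same treatments at nearly the same age, and the intervals for Klf9, 0.13 to 0.33 at 12 to 13 weeks and -0.12 to 0.08 at P84, do not overlap. That difference was not tested directly. Klf15 in adult hippocampus read 403.3, 439.8 and 327.5 in VPA arrays against 218.5, 288.3 and 232.8 in MC arrays, without overlap, a change of 0.66 (0.24 to 1.08, limma adjusted p = 0.357). At P84 Klf15 read 311.0, 366.5, 354.8 and 379.8 in VPA and 295.5, 318.8, 386.6 and 338.0 in MC arrays, which overlapped. Klf6 in adult cortex read 788.3, 776.2 and 760.8 in VPA arrays against 1068.6, 993.1 and 870.4 in MC arrays, a change of -0.33 (adjusted p = 0.359). A further Klf6 probe set averaged 332.3 in VPA and 334.6 in MC cortex, while its remaining probe sets averaged lower in VPA. Neither the Klf15 nor the Klf6 change passed.

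Running gave no member call. Over all genes, 0% of 13466 were called in hippocampus for running in MC mice, in VPA mice, or for the difference between them. The share was also 0% of 13606 in cortex for running in VPA mice and for that difference. In cortex Klf9 read 9858, 9521 and 9492 in MC+RW arrays against 7863, 7666 and 8711 in MC arrays, a change of 0.25 (0.14 to 0.36, limma adjusted p = 0.107, with 0.0147% of genes called). Without MC+RW replicate 3 it passed. In hippocampus the Klf9 change for MC+RW against MC was 0.11 (adjusted p = 0.548). In VPA mice Klf15 changed by -0.42 in hippocampus (adjusted p = 0.58) and by -0.34 in cortex (adjusted p = 0.785) with running. The difference of the running change between VPA and MC mice gave a lowest member adjusted p of 0.961 in hippocampus and 0.764 in cortex.

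In each adult tissue VPA+RW replicate 3 stood apart from the other VPA+RW arrays. In cortex Klf10 read 1231.7, 1297.3 and 602.2 in VPA+RW replicates 1, 2 and 3, Klf4 read 392.3, 362.2 and 197.1, and Klf2 read 436.5, 353.5 and 264.5. In hippocampus Klf10 read 829.0, 902.6 and 579.7 and Klf2 read 332.3, 361.9 and 215.0. Replicate 3 was lowest for each of these. Not every member was lowest there, since in cortex replicate 3 was highest for Klf6 (760, 855 and 1094) and Klf7 (1077, 1090 and 1189). Immediate early genes were low in the same arrays. Fos in cortex read 3692, 3588 and 628, Arc 4540, 3932 and 436, and Nr4a1 4576, 4129 and 1249. The labels do not say whether the replicate 3 samples of both tissues came from 1 animal, and the part of this in the running results was not tested.

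Between ages Klf9 varied more than between treatments. In every age comparison from here on, age changes together with any array run. Dissection changes too where forebrain is set against telencephalon or cortex, and sex makeup where adults are set against embryos. These cannot be told apart. In MC animals Klf9 averaged 43.6 ± 17.3 in E14.5 telencephalon, 449.5 ± 37.0 in E18.5 forebrain, 495.5 ± 87.4 in E18.5 hippocampus, 8080 ± 555 in adult cortex, 7498 ± 366 in adult hippocampus (SD, n = 3 each) and 8794 ± 366 in P84 hippocampus (SD, n = 4). From E14.5 to E18.5 forebrain the change was 3.31 (3.04 to 3.59, limma adjusted p = 4.28e-25), and it was 4.16 (3.90 to 4.42, adjusted p = 1.22e-31) for P84 against E18.5 hippocampus and 4.17 (adjusted p = 2.73e-30) for adult cortex against E18.5 forebrain. The 4 further Klf9 probe sets that were above the floor in all arrays of both groups were also higher at P84 than in E18.5 hippocampus, by 3.38 to 5.42, and the other 2 had 2 of 3 E18.5 arrays under the floor, so that no exact difference is given for them.

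Over the 19 groups the Klf9 order ran from MC, VPM and VPA telencephalon at E14.5 (43.6, 91.1 and 342.3), through the E18.5 MC and VPM groups (449.5 to 495.5) and the E18.5 VPA forebrain (709.5) and hippocampus (794.7), to all adult groups (7498 to 9709). The 3 E14.5 groups differed from each other and from the next group, E18.5 MC forebrain, by more than their spread. The 4 E18.5 MC and VPM groups overlapped each other, and the E18.5 VPA forebrain and hippocampus did too. Among adult groups, neighbours overlapped except at the step to the cortex groups VPA, VPA+RW and MC+RW, whose arrays (9492 to 9858) all lay above those of P84 MC hippocampus (8508 to 9326). Genes with a pattern over the 19 group means most like that of Klf9 were Dhrs7 (r = 0.994), Cldn10 (0.994), Cystm1 (0.994), Stxbp5 (0.992) and Rgs7bp (0.991), given as a description over groups that share ages and tissues.

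**Figure D4:**
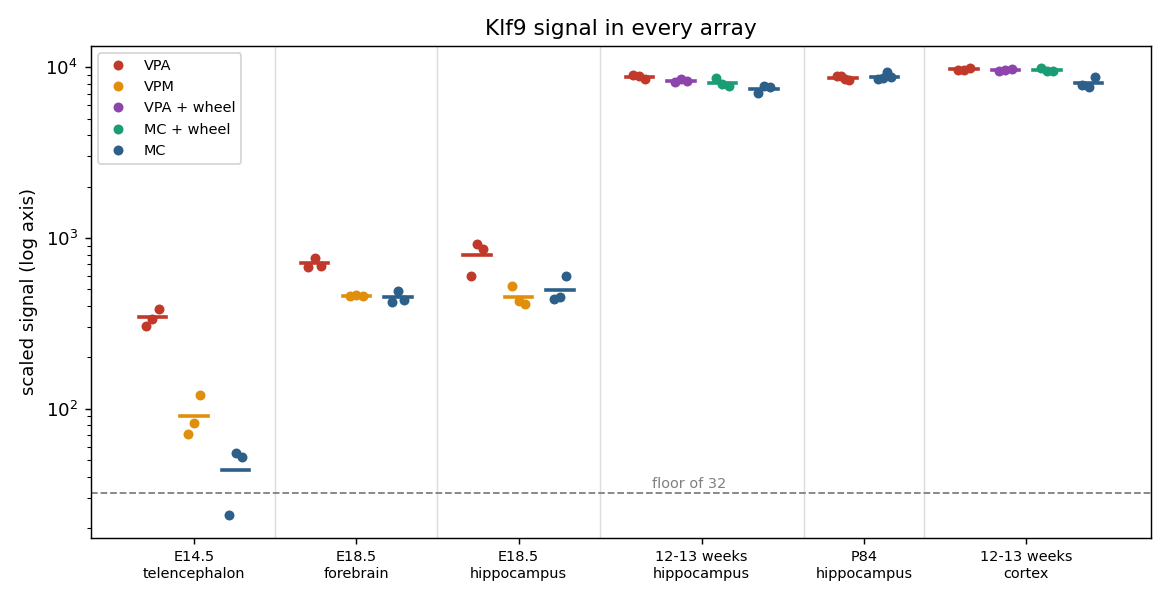
Klf9 scaled signal in all 59 arrays on a log axis, by age, tissue and treatment, with points for arrays and short lines for group means, and a line at the floor of 32. VPA telencephalon at E14.5 averaged 342.3, against 43.6 in MC, and all adult arrays lay between 7076 and 9858.

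Klf7 ran the other way after birth. Its MC means were 2556 at E14.5, 4973 in E18.5 forebrain, 5742 in E18.5 hippocampus, 1123 in adult cortex, 997 in adult hippocampus and 912.5 at P84. It was higher in E18.5 forebrain than at E14.5 by 0.96 (limma adjusted p = 6.14e-17) and at P84 it was -2.65 against E18.5 hippocampus (adjusted p = 3.97e-36), with the other probe sets at -2.25, -1.39 and -1.87. Klf6, the other axon growth member, did likewise: 1.08 (adjusted p = 1.36e-12) for E18.5 forebrain against E14.5, then -1.30 (adjusted p = 9.21e-17) at P84, although 2 of its other probe sets were near 0 there (0.04 and 0.08).

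Between E14.5 and the E18.5 forebrain 8 members rose and 0 fell in MC animals, against 54.3% of 14524 genes called (30.2% higher and 24% lower). Besides Klf9, Klf6 and Klf7 these were Klf2 (0.69, limma adjusted p = 0.00113), Klf4 (0.69, 0.00139), Klf15 (0.43, 0.0245), Klf12 (0.36, 0.000505) and Klf13 (0.28, 0.00701). Klf10 (0.20) and Klf3 (-0.01) were not called. For P84 against E18.5 hippocampus 3 rose and 4 fell, against 82.9% of genes (45.9% higher and 37% lower). For adult cortex against E18.5 forebrain 5 rose and 4 fell, against 81.1% (45.7% higher and 35.5% lower). Klf9, Klf10 (0.70 and 1.29) and Klf13 (0.35 and 0.42) were higher in both, while Klf7, Klf6, Klf3 (-0.55 and -0.58) and Klf12 (-0.53 and -0.51) were lower in both. Klf4 (0.90) and Klf2 (0.78) were higher in adult cortex.

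The other members varied over a narrower range of levels in MC animals than Klf9 and Klf7. Klf10, the TGF-beta early gene, averaged 355.1 ± 27.1 in E14.5 telencephalon, 406.7 ± 27.8 in E18.5 forebrain and 1000.4 ± 122.4 in adult cortex (SD, n = 3 each). Klf13 averaged 1268.2 ± 140.9, 1536.7 ± 7.7 and 2059.0 ± 63.0 in the same tissues, on the probe set used. Klf6 averaged 722.7 ± 82.0, 1525.7 ± 20.7 and 977.4 ± 100.0, with its highest level at E18.5.

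The endothelial members Klf2 and Klf4 were lowest at E14.5 and highest in adult cortex. Klf2 averaged 164.2 ± 25.1 in E14.5 telencephalon, 264.5 ± 38.6 in E18.5 forebrain and 451.8 ± 35.1 in adult cortex, and Klf4 averaged 117.9 ± 20.1, 190.1 ± 29.6 and 355.0 ± 56.1 (SD, n = 3 each). Among the 19 groups, Klf15 was lowest in the E14.5 MC telencephalon, at 185.8 ± 36.7, and highest in the 12 to 13 week VPA hippocampus, at 390.2 ± 57.3 (SD, n = 3 each). The E14.5 VPA telencephalon, at 348.9 ± 15.3, held the third highest mean of Klf15, although its arrays overlapped those of several adult groups.

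The direction with age depended on the probe set for several members. For Klf3, 4 further probe sets were higher at P84 than at E18.5 (0.63 to 1.38) although the probe set used was lower. For Klf12, 1 other probe set was higher by 1.30 and 2 were lower (-0.36 and -1.04). For Klf13 another probe set was lower in E18.5 forebrain than at E14.5, at -0.32 (limma adjusted p = 0.00201), with 639, 772 and 682 at E18.5 against 809, 1026 and 796 at E14.5 and no overlap, whereas the one used was higher (0.28). For Klf4 the other probe set was higher at P84 than in E18.5 hippocampus, by 0.57 (limma adjusted p = 0.0135). The Klf4 probe set used was at -0.19 there and was not called. For Klf6, 2 other probe sets were higher in adult cortex than in E18.5 forebrain (0.55 and 0.71), whereas the one used was lower (-0.65). The direction of Klf3, Klf6 and Klf12 after birth, of Klf4 in hippocampus after birth, and of Klf13 before birth is therefore uncertain.

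Regions were compared within an age. The labels do not say whether both regions came from the same animals, and the model treated all arrays as independent. In E18.5 MC animals, hippocampus against forebrain gave 4 called members against 22.6% of genes (10.9% higher and 11.7% lower). Klf3 (0.48, limma adjusted p = 2.57e-05) and Klf7 (0.20, 0.0215) were higher, and Klf12 (-0.33, 0.00387) and Klf6 (-0.28, 0.045) were lower. The Klf6 call held in only 3 of 15 alternatives and the Klf7 call in 8 of 15. In adults, hippocampus against cortex gave 4 against 18.6% (8.8% higher and 9.76% lower). Klf3 was higher (0.65, limma adjusted p = 4.35e-08), and Klf6 (-0.75, 1.2e-07), Klf4 (-0.58, 0.0204) and Klf10 (-0.46, 0.0278) were lower. The Klf4 call held in 9 of 15 alternatives and the Klf10 call in 10 of 15. Leaving out those near the floor, further Klf3 probe sets averaged 319.6 and 607.1 in hippocampus against 181.4 and 398.6 in cortex. Others went the opposite way with overlapping arrays, at 1095.1 and 171.5 in hippocampus against 1245.1 and 186.7 in cortex. Klf9 did not pass (-0.11).

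**Figure D5:**
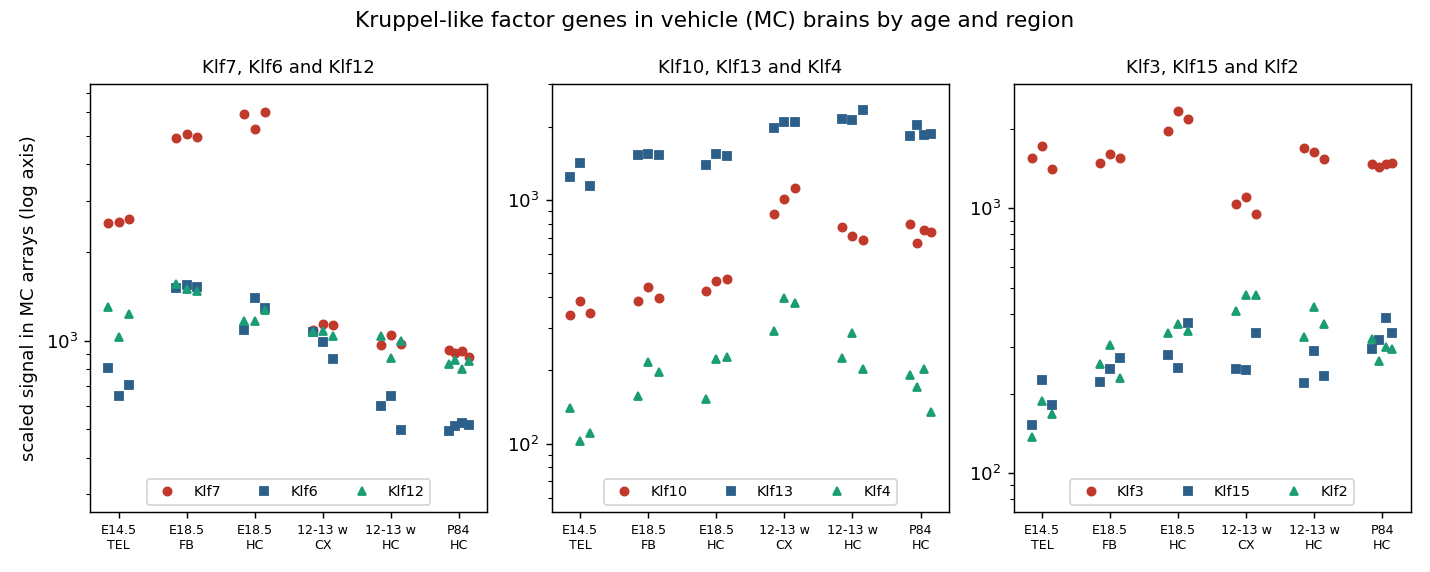
Scaled signal of the 9 members other than Klf9 in MC animals, on log axes with a point per array, in E14.5 telencephalon (TEL), E18.5 forebrain (FB) and hippocampus (HC), 12 to 13 week cortex (CX) and hippocampus, and P84 hippocampus. Klf7 is highest at E18.5, with means of 4973 in forebrain and 5742 in hippocampus.

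Linked lists differed between ages as well, as did most genes. From E14.5 to E18.5 forebrain 54.3% of all genes were called (30.2% higher and 24% lower). For P84 against E18.5 hippocampus 82.9% were called (45.9% higher and 37% lower). From E14.5 to E18.5 forebrain all 8 thyroid hormone genes rose (Slco1c1 by 2.68, Dio2 by 2.74, Nrgn by 2.79; median 1.91) and 11 of 16 glucocorticoid response genes rose and 2 fell (Nr3c2 by 2.14, Sgk1 by 1.76, the glucocorticoid receptor Nr3c1 by 0.63; median 0.40), beside a median of 0.05 for all genes. At P84 against E18.5 hippocampus 13 glucocorticoid genes rose and 3 fell (Nr3c1 by 2.51), 15 of 16 clock genes rose and 1 fell, and 11 of 13 immediate early genes rose and 2 fell (Egr1 by 3.50). Of 13 further Klf and Sp genes, 6 rose and 6 fell at P84, including Klf16 (1.50) and Klf11 (-1.88).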

How the data were processed

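Affymetrix Mouse 430 2.0 arrays were used. What the authors deposited is 1 signal intensity per probe set on a linear scale. GCOS is named in the submitters' processing notes, and neither the signal algorithm nor a scaling is given in the sources used here. The trimmed mean of the authors' intensity values ran from 197.6 to 419.4 over 59 arrays, and 0 of 1711 pairs of arrays were identical. Rescaling set the 2% trimmed mean to 500; the floor was 32, followed by log2, and 18.2% to 38% of the probe sets of an array were at the floor. Among the 45101 probe sets, 34958 had a single symbol, 932 had several and 9211 had none, and the Entrez number matched for 34754. A gene took its probe set of highest mean signal and entered a test when 3 or more arrays (4 at P84) reached a scaled signal of 100. The test was limma 3.58.1 (R 4.3.3, with version 1.17.8 of the data.table package), moderated with a trend on signal and adjusted by Benjamini-Hochberg over all genes tested. Comparisons numbered 18 inside 1 age and tissue, fitted over its arrays, and 10 others, fitted over all 59. The alternatives tried were the values as deposited, quantile normalization, log2(signal + 32), no filter, a filter of 200, no trend, every probe set, fits of only the groups compared, a replicate block and leaving out each array. Of 173 genes on 19 lists, the members included, 159 were on the array. The members and lists were chosen with earlier results of these data known, so no list is independent support. All 10 members were named, with up to 3 genes per list by smallest adjusted p and the 5 genes most like Klf9. The procedure was tested on simulated data. Promoters came from RefSeq GRCm38.p6 through Python 3.11.15 (matplotlib 3.10.9, numpy 2.4.6, pandas 2.3.3). The number of arrays per group, 3 or 4, limits precision.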

Additional observations from a re-analysis of the deposited data

Results flagged for a closer look

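The response of 4 members to VPA differed between E14.5 telencephalon and E18.5 forebrain by a test of the difference itself (limma over all 59 arrays, E18.5 minus E14.5). The differences on the log2 scale were -2.26 for Klf9, -0.84 for Klf15, -0.75 for Klf4 and 0.44 for Klf7. Between P84 hippocampus and E14.5 telencephalon they were -2.94 for Klf9, -0.85 for Klf15 and 0.41 for Klf7. In P84 MC hippocampus, Klf13 read 2039 in replicate 2 against 1843 to 1868 in the other 3 arrays, a gap of 0.873 of the group's range, above Dixon's critical value for 4 samples. Chance flags about 1 in 20 groups in that way.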

How the results depend on the processing

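Klf9 in VPA against MC at E14.5 passed in all 15 alternatives run, as did Klf15 and Klf7. On the brightest Klf9 probe set the change ran from log2 2.24 to 3.06 (limma adjusted p 2.43e-09 to 0.000458), and further tested probe sets gave smaller changes. Klf9 in VPM against MC was lost in 7 of 15, with 0.83 under quantile normalization (adjusted p = 0.0777) and 0.27 as deposited (0.602). Klf4, Klf3 and Klf12 in VPA against MC were lost in 6 of 13, 9 of 15 and 6 of 15. The 13 leave out the values as deposited and the filter of 200, where Klf4 was too dim to be tested and so was not called. Called members at E14.5 in VPA against MC were 6, and 3 as deposited or with no filter. In VPM against MC they were 2, and 1 under quantile normalization, with no filter or with only the groups compared, and 0 as deposited. In the E18.5 forebrain, VPA against MC gave 1 and 0 as deposited, and VPA against VPM gave 1, and 0 as deposited or with no filter. In E18.5 hippocampus VPA against VPM gave 0, and 1 (Klf9) as deposited. E18.5 forebrain against E14.5 in MC gave 8, and 5 under quantile normalization. E18.5 hippocampus against forebrain gave 4, with 2 under quantile normalization or with only the groups compared, and 1 as deposited, where Klf7 reversed to -0.0052. Adult hippocampus against cortex gave 4, and 2 as deposited. The difference of the VPA change between E18.5 forebrain and E14.5 gave 4, and 2 under quantile normalization or as deposited. The cause was not tested in any of these.

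Leaving out each array in turn gave 3 to 5 calls for VPA against MC and for VPA against VPM at E14.5 (6 and 4 with all arrays), 1 to 3 for VPM against MC, 6 to 8 for E18.5 forebrain against E14.5, 1 for VPA against MC and 0 to 1 for VPA against VPM in E18.5 forebrain, 2 to 4 for both region comparisons, 0 to 1 for MC+RW against MC in cortex, 7 for P84 against E18.5 hippocampus, 9 for adult cortex against E18.5 forebrain, and 3 to 4 for both differences of the VPA change. Same-numbered arrays did not pair: the pairs that correlated above 0.1 were 1 of 9 at E14.5, 2 of 9 in E18.5 hippocampus, 3 of 9 in E18.5 forebrain (highest 0.383), 1 of 18 in adult hippocampus, 4 of 18 in adult cortex and 0 of 4 at P84. With the replicate block 52 of 53 member calls were the same and 1 was lost (Klf6 in E18.5 hippocampus against forebrain), and 7 members were called in VPA against MC and 5 in VPA against VPM at E14.5. The median change of all genes for P84 against E18.5 hippocampus was 0.157 on scaled values, 0.564 as deposited and -0.012 after quantile normalization.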

Other observations

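In adult cortex Fos read 2626, 2460 and 2654 in MC+RW arrays against 4250, 4569 and 5154 in MC arrays, without overlap, as was so for 17.8% of genes. In hippocampus the VPA+RW arrays read 1637, 1573 and 345 for Fos, 2802, 2670 and 602 for Arc and 7566, 8180 and 3719 for Egr1, with replicate 3 lowest each time. For the other members the genes with the most alike pattern over the 19 group means were L1cam and Marchf9 for Klf7 (r = 0.989 and 0.990), Deptor for Klf10 (0.985), Zfpm2 for Klf3 (0.962) and Mcf2 for Klf2 (0.950).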
